A study of Mus musculus with 6 samples.

Results

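Iron handling in dendritic cells was followed through 10 genes out of the 23398 in the deposited expression table. They were chosen by symbol for their role in ferritin storage, iron import and export, heme breakdown, siderophore binding or iron sensing, and all 10 were present once in the table. The samples were BMDC, dendritic cells grown from mouse bone marrow in DMEM with serum and antibiotics. The vehicle group had 3 libraries from vehicle-treated cells, the nanoparticle group had 3 libraries from cells given Ca(OH)2 nanoparticles, and exposure lasted 12 hours in both. The labels give no strain, age, particle dose or growth factor, and do not say whether a group's libraries came from separate mice or cultures. The p-values below thus rest on the spread between these libraries, which may be technical. In limma that spread is also drawn toward the spread of other genes.

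Cells store iron inside ferritin, a hollow shell built from heavy chains (Fth1), which oxidise iron, and light chains (Ftl1), which help it mineralise. Iron enters on transferrin through the transferrin receptor (Tfrc) and crosses the endosomal membrane through the transporter DMT1 (Slc11a2), while NRAMP1 (Slc11a1) moves it out of phagosomes. It is released from ferritin when the receptor Ncoa4 carries ferritin to lysosomes, and it leaves the cell through ferroportin (Slc40a1), the only known iron exporter of mammals. Heme oxygenase 1 (Hmox1) frees iron from heme, and lipocalin 2 (Lcn2) binds the siderophores with which bacteria collect iron. Iron regulatory proteins, one of which is encoded by Ireb2, bind a hairpin called the iron-responsive element when iron is scarce: in a 5′ untranslated region (UTR) binding blocks translation, and in a 3′ UTR it protects the mRNA from decay.

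The hairpin is shown because it divides these mRNAs into those governed mainly through translation and those governed through mRNA stability, and only the second kind of control acts on the mRNA level that was measured here. A search of the transcripts of GENCODE M21 (mouse build GRCm38) for a bulged C, a 5-base arm, the loop CAGTGN and a paired 3′ arm found 8 sites in 5 of the 10 genes, in the 5′ UTR of 3 and the 3′ UTR of 2. Each is written 5′ to 3′ on the mRNA strand with the 6-base loop in capitals.
Fth1: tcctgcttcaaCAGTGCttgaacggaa
Ftl1: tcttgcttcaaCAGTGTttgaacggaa
Slc40a1: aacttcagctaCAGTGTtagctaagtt
Slc11a2: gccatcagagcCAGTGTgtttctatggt
Tfrc, site 1: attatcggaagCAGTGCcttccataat
Tfrc, site 2: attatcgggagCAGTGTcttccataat
Tfrc, site 3: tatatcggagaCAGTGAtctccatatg
Tfrc, site 4: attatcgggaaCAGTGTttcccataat

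The 5′ UTR sites lay at chr19:9982733-9982759 on the plus strand (Fth1), chr7:45459780-45459806 on the minus strand (Ftl1) and chr1:45925466-45925492 on the minus strand (Slc40a1). The Fth1 and Ftl1 sites were identical at 25 of 27 positions. In the 3′ UTR, Slc11a2 had 1 site at chr15:100395153-100395180 on the minus strand, whose 3′ arm holds 1 unpaired base, and Tfrc had 4 sites on chromosome 16 (plus strand) within 518 bases, between 32631220 and 32631737. A fully paired match occurred in the 5′ UTR of 0.148% of 20916 genes and in the 3′ UTR of 0.613% of 21045 genes, and with 1 unpaired base allowed in 0.392% and 1.7%. A match of letters is a description and not proof of protein binding.

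Values are FPKM, fragments per kilobase of gene and relative to library size, which allows levels to be set side by side per length. Recovered read totals were 17314898 to 22006536 per library. Nanoparticle library 1 stood apart from the others: the chi-square per degree of freedom between replicate libraries was 2.93 to 5.62 within vehicle and 12.6 between nanoparticle libraries 2 and 3, but 190 and 253 between those and library 1. Results that rest on it are therefore also given without it. Of 9 dendritic cell markers above the filter of 1 FPKM in 3 libraries, 1 was higher with nanoparticles (Irf8) and 4 were lower, among them Cd209a (5.69 ± 0.523 to 0.0254 ± 0.0441 FPKM) and Clec10a (6.92 ± 1.12 to 0.786 ± 0.267 FPKM). Cd209a and Clec10a reached the filter only with the vehicle libraries, the group where they are high, which limits these calls. Dendritic cell markers summed to 1510.6 to 1556.5 FPKM in vehicle and 825 to 1609.5 FPKM with nanoparticles. The low was nanoparticle library 1 and the high library 3. The largest part was H2-Ab1, at 982 to 1035 FPKM in vehicle and 494, 1060 and 1162 FPKM in nanoparticle libraries 1 to 3. Itgax (CD11c) was at 442 to 456 FPKM in vehicle and 248, 398 and 375 FPKM with nanoparticles. Flt3 and Xcr1 were at or under 0.181 FPKM in vehicle and higher in every nanoparticle library, though below the filter. With nanoparticles Xcr1 held 2.21, 0.828 and 0.711 FPKM, and Flt3 held 0.0793, 0.0294 and 0.0588 FPKM, the latter on 3 to 8 reads. Dpp4, also below the filter, was lower in every nanoparticle library (0.31 to 0.813 FPKM) than in vehicle (0.864 to 1.14 FPKM). Macrophage markers summed to 1189.5 to 1341.5 FPKM in vehicle and 1483.4 to 1875.3 FPKM with nanoparticles, where the high was library 1. Of 11 above the filter 4 were higher, among them Cd14 (60.0 ± 3.03 to 531 ± 98.6 FPKM), and 5 lower, among them Mrc1 (56.3 ± 5.75 to 7.77 ± 4.08 FPKM). These marker calls are from the limma test described below, by which 17.0% of all genes tested were higher and 16.2% lower. The part of cell composition in the results below was not tested. In bulk RNA, fewer cells of a type and less RNA per cell cannot be told apart.

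With nanoparticles, 5 of the 10 genes rose (Fth1, Hmox1, Slc11a1, Slc11a2 and Lcn2), 2 fell (Tfrc and Slc40a1), and 3 did not pass the test (Ftl1, Ncoa4 and Ireb2). The test was limma on log2(FPKM + 1) over the 10682 genes that reached 1 FPKM in 3 or more libraries, with Benjamini-Hochberg adjustment over all of them and a threshold of 0.05. All 10 genes passed the filter, Lcn2 through the nanoparticle libraries alone. Of all genes tested, 33.2% passed the threshold, 17.0% higher and 16.2% lower, and 44.4% had an unadjusted p under 0.05. The median log2 difference was 0.76 over the 10 genes and 0.00 over all genes tested. Libraries of the groups did not overlap in the 7 genes that passed, as in 52.1% of all genes tested (25.9% higher, 26.2% lower). Without nanoparticle library 1, 9 of the 10 genes passed, against 64.8% of all genes. Tfrc (log2 difference -1.14), Slc11a1 (1.07), Slc11a2 (1.59), Lcn2 (5.35) and Fth1 (1.14) changed little without it.

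**Figure D1:**
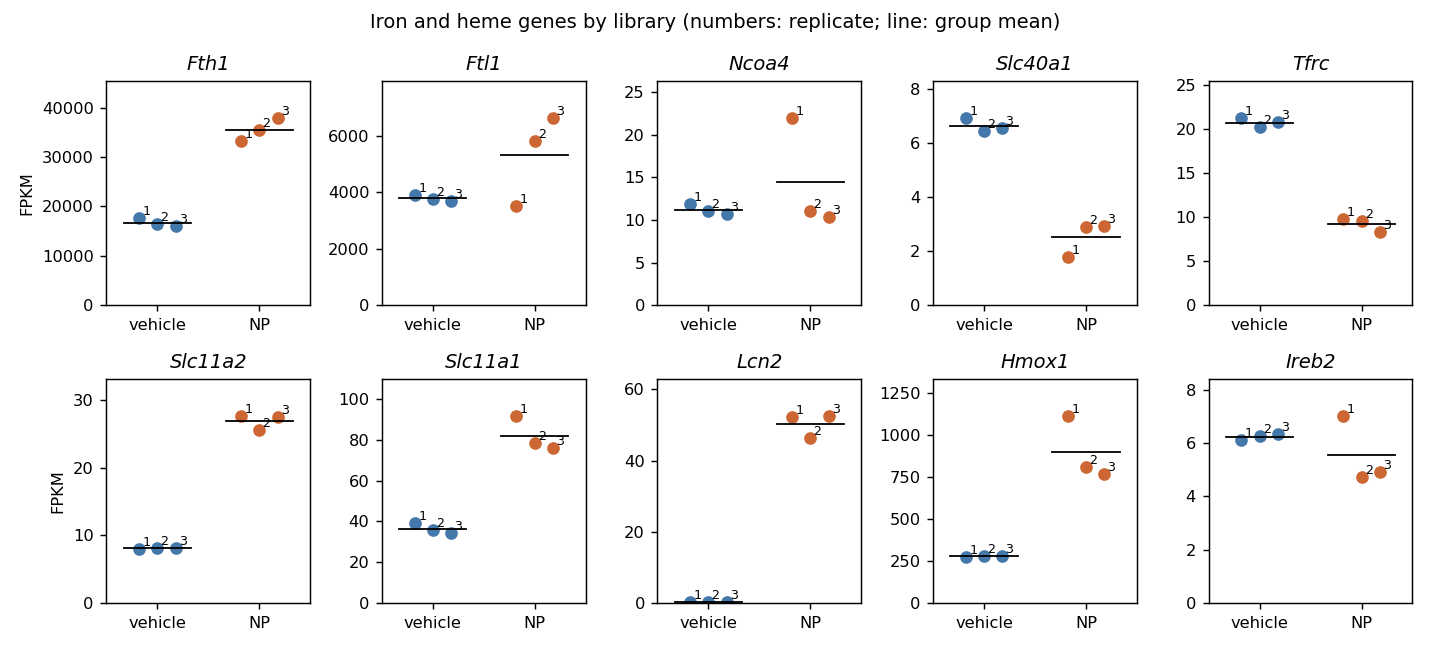
FPKM of the 10 genes in each library (linear axes from 0, one panel per gene, numbers give the replicate, lines the group mean, n = 3 per group, NP for nanoparticle). Fth1, Slc11a2, Slc11a1, Lcn2 and Hmox1 lay higher in every nanoparticle library, Slc40a1 and Tfrc lower, and nanoparticle library 1 lay apart in Ftl1, Ncoa4, Slc40a1, Hmox1 and Ireb2.

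Ferritin heavy chain mRNA was the most abundant transcript of the table in both groups, by mean FPKM. Fth1 (ENSMUSG00000024661, chromosome 19, 9980598 to 9985098, plus strand) held 17589, 16432 and 16050 FPKM in vehicle libraries 1 to 3, and 33243, 35542 and 37849 FPKM in nanoparticle libraries 1 to 3. Every nanoparticle library was far above every vehicle library. The mean rose 2.13-fold, from 16690 ± 802 to 35545 ± 2303 FPKM (± SD of 3 libraries per group). That is a limma log2 difference of 1.09 (SE 0.253, adjusted p = 0.0184). This call is less firm than the separation of the libraries, and its SE is not the spread of the Fth1 libraries alone. The fit draws the spread of each gene toward that of genes of like level, the trend. With no trend the limma log2 difference was also 1.09, with adjusted p = 0.00058. The call was kept in 9 of 16 alternative analyses, among them limma-voom (adjusted p = 0.00132) and the limma fit without nanoparticle library 1 (3.8e-05). It was lost in 7, among them the fit with no filter on low genes (0.775) and each fit without 1 vehicle library (0.0948 to 0.116). The log2 difference stayed between 0.62 and 1.14 in all 16. The deposited Fth1 values correspond to whole reads over 866 bases, the shortest such length, and not over the 3469 bases of its merged annotated exons.

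Ferritin light chain mRNA did not pass the test. Ftl1 (ENSMUSG00000050708, chromosome 7, 45457944 to 45459884, minus strand) held 3912, 3757 and 3699 FPKM in vehicle and 3508, 5817 and 6618 FPKM with nanoparticles. Nanoparticle library 1 lay below all vehicle libraries, and libraries 2 and 3 above them. The limma log2 difference was 0.44 (SE 0.284, adjusted p = 0.288), and 0.71 (adjusted p = 0.00026) without nanoparticle library 1. Both ferritin genes have processed pseudogenes that share their sequence, so their values are uncertain. Ftl1-ps1, the most abundant of the listed relatives, held 68.7 to 79.2 FPKM in vehicle and 65.0, 107 and 129 FPKM in nanoparticle libraries 1 to 3, the same order of libraries as Ftl1. By limma, 0 of the 2 ferritin relatives above the filter passed, 0 at an unadjusted p under 0.05 and 0 by limma-voom. Without nanoparticle library 1, 1 of the 2 passed, Ftl1-ps1 (log2 difference 0.65, limma adjusted p = 0.0013), where 64.8% of all genes passed. Ftl1 also shares 355 exon bases with an opposite-strand gene, Gm10252, and the strand setting of the counting is not given in the sources used here.

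The balance of heavy to light chain mRNA moved toward the heavy chain. Fth1 stood to Ftl1 in FPKM as 4.50, 4.37 and 4.34 to 1 in vehicle, and as 9.48, 6.11 and 5.72 to 1 in nanoparticle libraries 1 to 3. All nanoparticle ratios lay above all vehicle ratios, and library 1 had the highest. The difference of the mean log2 ratio was 0.65 (exact permutation test, two-sided, p = 0.1, the smallest p that 3 libraries against 3 can give, adjusted p = 0.1 over 7 library measures). Without nanoparticle library 1 it was 0.42. Together the chains took 6.31% ± 0.215 of the summed FPKM in vehicle and 9.05% ± 0.134 with nanoparticles (± SD of 3 libraries per group, exact permutation p = 0.1, adjusted p = 0.1). As a share of recovered reads they took 2.22% ± 0.0732 and 3.39% ± 0.294 (exact permutation p = 0.1, adjusted p = 0.1). The share of reads depends on the 866 bases taken for Fth1, the shortest length with whole reads, and a longer one would raise it.

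**Figure D2:**
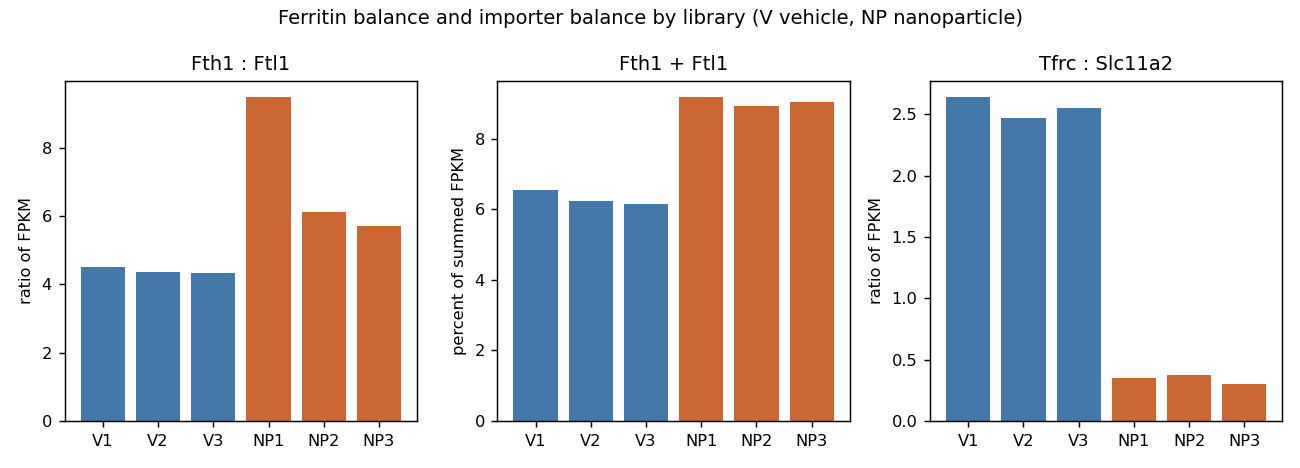
Ratio of Fth1 to Ftl1 FPKM, share of both ferritin genes in the summed FPKM (percent), and ratio of Tfrc to Slc11a2 FPKM, one bar per library from 0 (V1 to V3 vehicle, NP1 to NP3 nanoparticle). The ferritin share was 8.92% to 9.18% in nanoparticle libraries and 6.14% to 6.55% in vehicle, and the Tfrc to Slc11a2 ratio fell from 2.47 to 2.64 down to 0.302 to 0.373.

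Ncoa4 (ENSMUSG00000056234, chromosome 14, 32159865 to 32179855, plus strand), the cargo receptor that delivers ferritin to lysosomes, showed no shared direction. It held 11.9, 11 and 10.7 FPKM in vehicle and 21.9, 11.1 and 10.3 FPKM with nanoparticles. Only nanoparticle library 1 was high, at 2.05 times the mean of the other nanoparticle libraries, which lay within or below the vehicle range. The limma log2 difference was 0.26 (SE 0.273, adjusted p = 0.504, 95% interval -0.40 to 0.92), and -0.06 without that library.

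The exporter fell. Slc40a1 (ENSMUSG00000025993, chromosome 1, 45908068 to 45926523, minus strand) held 6.92, 6.45 and 6.56 FPKM in vehicle and 1.78, 2.90 and 2.95 FPKM with nanoparticles. Each nanoparticle library was below each vehicle library, and library 1 was the lowest. The vehicle mean was 2.61 times the nanoparticle mean, and the log2 difference was -1.13 (SE 0.157, limma adjusted p = 0.00267), or -0.96 without nanoparticle library 1. These values rest on 1151 to 1240 reads per vehicle library and 261 to 511 per nanoparticle library.

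Of the importers, the transferrin receptor fell and both NRAMP family transporters rose. Tfrc (ENSMUSG00000022797, chromosome 16, 32608920 to 32632794, plus strand) held 21.2, 20.2 and 20.8 FPKM in vehicle and 9.74, 9.55 and 8.26 FPKM with nanoparticles, a limma log2 difference of -1.10 (SE 0.1, adjusted p = 0.00058). Slc11a2 (ENSMUSG00000023030, chromosome 15, 100387898 to 100425072, minus strand) held 8.03, 8.17 and 8.16 FPKM in vehicle and 27.6, 25.6 and 27.4 FPKM with nanoparticles. The replicates of Slc11a2 were tight, and its mean rose 3.31-fold, a limma log2 difference of 1.61 (SE 0.0879, adjusted p = 0.00011). In Slc11a2, 402 exon bases are shared with an opposite-strand gene, Gm5475, so reads of either could not be told apart without strand.

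Tfrc and Slc11a2, the pair with hairpins in the 3′ UTR, thus moved in opposite directions. The ratio of Tfrc to Slc11a2 in FPKM was 2.64, 2.47 and 2.55 in vehicle and 0.353, 0.373 and 0.302 with nanoparticles. The order of the pair was inverted in every nanoparticle library (difference of mean log2 ratios -2.90, exact permutation p = 0.1, adjusted p = 0.1). Slc11a2 is known to be made with and without the hairpin, and values per gene cannot separate these forms. The 3 genes with a hairpin in the 5′ UTR did not share a direction either, since Fth1 rose, Slc40a1 fell and Ftl1 did not pass.

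Slc11a1 (ENSMUSG00000026177, chromosome 1, 74375195 to 74386062, plus strand), the phagosomal transporter of macrophages and other phagocytes, held 39.1, 35.7 and 34.3 FPKM in vehicle and 91.7, 78.7 and 76.0 FPKM with nanoparticles. The groups were well apart, with a mean 2.26-fold higher and a limma log2 difference of 1.15 (SE 0.120, adjusted p = 0.00091). Slc11a2 rose more than its relative: the ratio of Slc11a1 to Slc11a2 went from 4.48 ± 0.343 to 3.06 ± 0.273 (± SD of 3 libraries per group), with every nanoparticle value under every vehicle value (exact permutation test, p = 0.1, adjusted p = 0.1).

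The siderophore binder Lcn2 (ENSMUSG00000026822, chromosome 2, 32384633 to 32388252, minus strand) had by far the largest change of the 10 genes. It held 0.210, 0.346 and 0.146 FPKM in vehicle, resting on 11, 18 and 8 reads, and 52.3, 46.4 and 52.5 FPKM with nanoparticles, resting on 2241, 2015 and 2652 reads. It was near absent from vehicle libraries and moderately abundant in all nanoparticle libraries. The mean FPKM was 215-fold higher, and on the log2(FPKM + 1) scale, which understates changes from low values, the change was 5.38 (SE 0.108, limma adjusted p = 5.8e-06), the 29th largest increase of the 10682 genes. Lcn2 was among the genes tested only through its nanoparticle libraries, the group where it is high, which limits this p-value and rank. It is also a granule gene of neutrophils. The 15 neutrophil markers summed to 276 to 309 FPKM in vehicle and 194 to 292 FPKM with nanoparticles, and 5 were above the filter. Most of the vehicle sum was Mmp8, at 230 to 259 FPKM, and the low of 194 FPKM was nanoparticle library 1. These sums thus mostly follow 1 gene. Csf3r (log2 difference 1.71, above the filter through the nanoparticle libraries alone) and S100a8 (1.16, lost without any 1 vehicle library, adjusted p = 0.0715 to 0.0797) rose, and Mmp8 fell from 245 ± 14.5 to 130 ± 2.28 FPKM (-0.90). S100a9 and Mmp9 did not pass with all libraries. S100a9 held 0.962, 0.966 and 1.65 FPKM in vehicle and 0.352, 13.2 and 10.2 FPKM with nanoparticles, and Mmp9 held 10.1, 9.41 and 9.43 FPKM and 9.33, 39.5 and 34.5 FPKM, so that both were high in nanoparticle libraries 2 and 3 alone. Without nanoparticle library 1, all 5 passed, 4 of them higher, where 64.8% of all genes passed and 34.3% were higher. The 10 markers below the filter were at 0 to 4.30 FPKM. Among them Camp was higher in every nanoparticle library (0.242, 1.83 and 1.99 FPKM) than in vehicle (0 to 0.190 FPKM), Cxcr2 was lower in every one, and Ngp was highest in nanoparticle libraries 2 and 3 (4.30 and 3.23 FPKM). The part of these markers' source cells in the Lcn2 result was not tested.

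Heme oxygenase 1 rose in every nanoparticle library. Hmox1 (ENSMUSG00000005413, chromosome 8, 75093621 to 75100589, plus strand) held 276, 279 and 281 FPKM in vehicle, and 1113, 808 and 768 FPKM with nanoparticles. The mean was 3.22-fold higher, with a limma log2 difference of 1.66 (SE 0.179, adjusted p = 0.00102), and library 1 was the highest at 1.41 times the mean of the others. Without it the log2 difference was 1.5. By mean FPKM, Hmox1 moved from rank 126 to rank 66 of all genes. Markers of red blood cell precursors, which make much heme, were near 0, with 7 of the 12 listed genes in the table and a sum of 0.286 to 0.808 FPKM in vehicle and 0.183 to 0.295 FPKM with nanoparticles.

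Ireb2 (ENSMUSG00000032293, chromosome 9, 54863789 to 54912530, plus strand) held 6.13, 6.28 and 6.32 FPKM in vehicle and 7.01, 4.74 and 4.93 FPKM with nanoparticles. Libraries 2 and 3 of the nanoparticle group were below vehicle and library 1 above it. The limma log2 difference was -0.16 (SE 0.147, adjusted p = 0.454, 95% interval -0.51 to 0.20), and without nanoparticle library 1 it was -0.31 and passed the threshold (adjusted p = 0.0057).

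**Figure D3:**
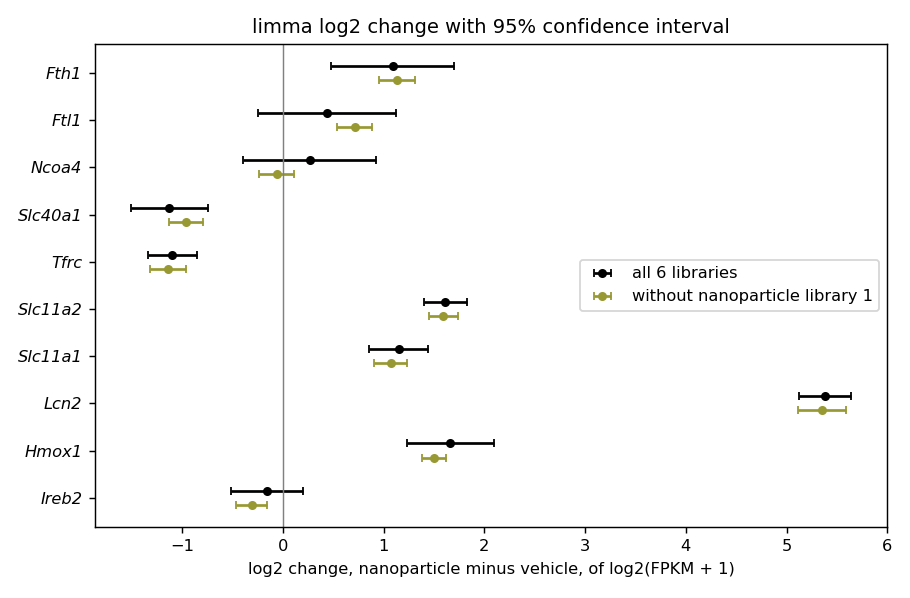
limma log2 difference on the log2(FPKM + 1) scale with its 95% confidence interval for the 10 genes, from all 6 libraries (black) and without nanoparticle library 1 (olive). Intervals of Ftl1, Ncoa4 and Ireb2 include 0 with all libraries, and that of Ncoa4 also without library 1.

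Set side by side per length, the mean levels in vehicle ran from Fth1 and Ftl1 through Hmox1 (278 FPKM), Slc11a1 (36.4), Tfrc (20.7), Ncoa4 (11.2), Slc11a2 (8.12), Slc40a1 (6.64) and Ireb2 (6.24) to Lcn2 (0.234). With nanoparticles the 4 most abundant kept their places, followed by Lcn2 (50.4 FPKM), Slc11a2 (26.9), Ncoa4 (14.4), Tfrc (9.18), Ireb2 (5.56) and Slc40a1 (2.54). Within each group, no library of 1 gene overlapped those of its neighbour in this order. The smallest gap in vehicle lay between Slc40a1 (lowest library 6.45 FPKM) and Ireb2 (highest 6.32 FPKM).

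The deposited values carry a scaling between libraries, and it sets part of each change. With libraries scaled by total reads, the median log2 difference of all genes was -0.28 in place of 0.00, and 5 of the 10 genes were higher and 2 lower, as before, against 10.4% and 33.8% of all genes (44.2% in either direction). Lcn2 (5.18), Hmox1 (1.32), Slc11a2 (1.29), Slc11a1 (0.81) and Fth1 (0.74, limma adjusted p = 0.038) remained higher on that scale. Tfrc (-1.42) and Slc40a1 (-1.40) remained lower. With equal summed FPKM the log2 difference of Fth1 was 0.62 and did not pass (adjusted p = 0.0556), while the median of all genes was -0.38 and 48.6% of all genes passed, 8.25% higher and 40.3% lower. There 4 members were higher and 2 lower. Ncoa4 turned to -0.05 with total reads and -0.17 with equal summed FPKM, and Ftl1 to -0.03 with the latter.

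**Figure D4:**
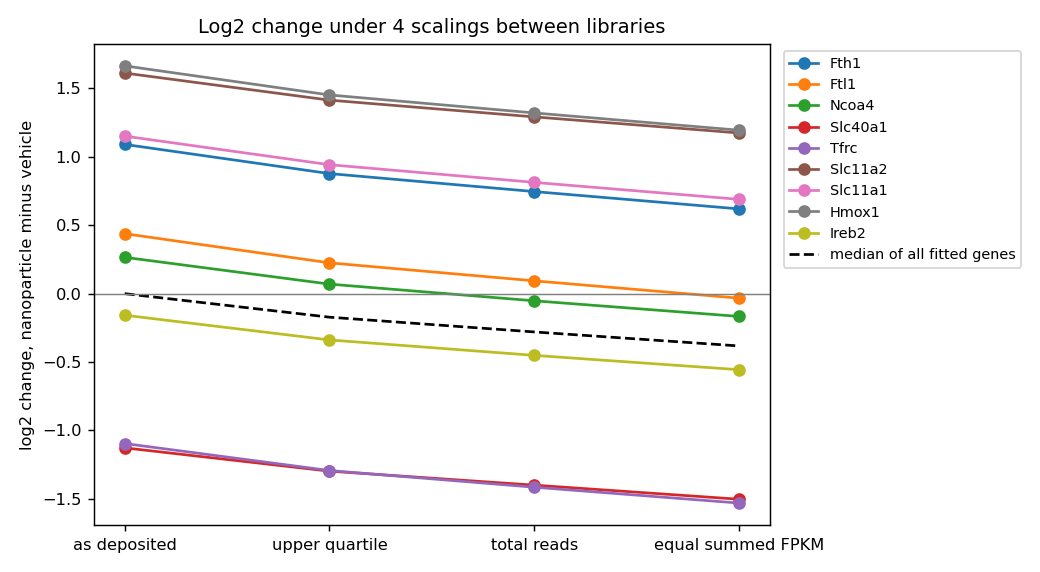
Log2 change (nanoparticle minus vehicle, log2(FPKM + 1) scale) of 9 of the genes under 4 scalings between libraries, with the median of all 10682 genes as a dashed line. Lcn2 is left out because its change of 5.10 to 5.38 lies far above the axis, and each line is lower under the other 3 scalings than with the deposited one.

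Other genes of iron and heme metabolism were read from 6 lists with 64 genes, of which 46 were above the filter. Of these 46, 13 rose, 6 fell and 27 did not pass, with a median log2 difference of 0.07, beside 17.0% higher and 16.2% lower among all genes. Without nanoparticle library 1, 23 rose and 10 fell, where 34.3% of all genes rose and 30.5% fell. With scaling by total reads 8 rose and 14 fell, where 10.4% of all genes rose and 33.8% fell.

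Transcription factors that govern heme and iron genes were the list in which most genes passed. Of 8 above the filter, 7 rose and 1 fell, where 17.0% of all genes rose and 16.2% fell. With total reads 4 rose and 1 fell, against 10.4% and 33.8% of all genes. With equal summed FPKM only Maff and Spic passed as higher and Bach1 as lower, where 8.25% of all genes were higher and 40.3% lower. Among the 8 there were 0 changes of direction under any scaling. The one that fell was Bach1, the heme-sensing repressor of Hmox1, from 11.9 ± 0.556 to 6.76 ± 1.62 FPKM (± SD of 3 libraries per group, log2 difference -0.75, limma adjusted p = 0.013, 0.0563 to 0.0612 without vehicle library 2 or 3). Bach1 is outside the naming rule and was chosen after its values were seen. Maff, a small Maf partner of such factors, rose from 9.30 ± 0.360 to 34.7 ± 3.87 FPKM (log2 difference 1.79, limma adjusted p = 0.00016), and Mafg rose by a log2 difference of 0.82 (0.37 and not past with equal summed FPKM, adjusted p = 0.0564). Spic, a factor of iron-recycling macrophages, held 5, 7 and 7 reads in vehicle and 3.72, 1.94 and 1.84 FPKM with nanoparticles (log2 difference 1.65, limma adjusted p = 0.00179), and like Hamp below it passed the filter through the nanoparticle libraries alone. Cd163, the hemoglobin scavenger receptor of such macrophages, had 25, 31 and 39 reads in vehicle and 2, 0 and 0 with nanoparticles, and was below the filter.

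Among regulators of iron, Hamp, which encodes the hormone hepcidin, held 3, 0 and 1 reads in vehicle and, with nanoparticles, 328 FPKM in library 1 against 12.5 and 10.8 FPKM in the others. All nanoparticle libraries were above vehicle, with library 1 far above the others. Its log2 difference was 5.02 (SE 1.25, limma adjusted p = 0.0241), 3.45 without nanoparticle library 1, and it did not pass with limma-voom (adjusted p = 0.285), with no filter (0.0617), with a pseudocount of 5 (0.0825) or without any 1 of the vehicle libraries (0.0723 to 0.0805). A near-identical copy, Hamp2, makes its reads uncertain. Aco1, the other iron regulatory protein, fell from 19.1 ± 0.316 to 13.4 ± 1.08 FPKM (log2 difference -0.49, limma adjusted p = 0.0108, 0.0551 to 0.0642 without 1 vehicle library). Hfe, a partner of the transferrin receptor, fell from 5.43 ± 0.325 to 2.10 ± 0.411 FPKM (log2 difference -1.06, limma adjusted p = 0.00135).

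In the uptake and trafficking list, 1 of 6 genes rose and 1 fell, beside 17.0% higher and 16.2% lower among all genes. Steap3, the endosomal reductase that works with the transferrin receptor, fell from 8.41 ± 0.357 to 2.60 ± 1.22 FPKM (log2 difference -1.44, limma adjusted p = 0.00514). Mcoln1, a lysosomal channel that passes iron and calcium, rose by a log2 difference of 0.32 (limma adjusted p = 0.0414), which was 0.01 with total reads, -0.10 with equal summed FPKM, and not past the threshold in 10 of the alternatives.

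In heme synthesis, 1 of 8 genes rose and 1 fell, beside 17.0% higher and 16.2% lower among all genes. Alas1, the first and rate-limiting enzyme, held 219, 199 and 198 FPKM in vehicle and 380, 558 and 580 FPKM with nanoparticles (log2 difference 1.27, SE 0.195, limma adjusted p = 0.00385). Cpox, a later enzyme of the pathway, fell by 0.53 on the log2 scale (limma adjusted p = 0.00477). For heme and hemoglobin uptake, heme transport and breakdown, limma called 0 of 8 genes, where 33.2% of all genes passed. At an unadjusted p under 0.05 there were 4, beside 44.4% of all genes, and limma-voom called 1 (Abcg2). Without nanoparticle library 1, 7 of the 8 passed, 4 of them higher, as did 64.8% of all genes, 34.3% higher. With total reads and all libraries 3 of the 8 passed, all lower, where 33.8% of all genes were lower. Blvrb and Blvra, which encode biliverdin reductases, were chosen after their values were seen. Blvrb held 59.9 to 66.6 FPKM in vehicle and 72.6, 140 and 149 FPKM in nanoparticle libraries 1 to 3. Blvra held 33.4, 27.2 and 28.4 FPKM in vehicle and 9.94, 25.7 and 28.3 FPKM in those libraries. With all libraries neither passed, at log2 differences of 0.85 (Blvrb, limma adjusted p = 0.0596) and -0.58 (Blvra, limma adjusted p = 0.289). Without nanoparticle library 1 these were 1.18 (limma adjusted p = 1.8e-05) and -0.13 (limma adjusted p = 0.291).

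In the mitochondrial list, 3 of 12 genes rose and 1 fell, beside 17.0% higher and 16.2% lower among all genes. Slc25a37 (mitoferrin 1), which brings iron into mitochondria, rose from 1.95 ± 0.299 to 11.7 ± 5.43 FPKM, where library 1 held 17.9 and the others 9.41 and 7.72 (log2 difference 2.03, SE 0.288, limma adjusted p = 0.00288). Without nanoparticle library 1 its log2 difference was 1.70. Isca2, an iron-sulfur cluster assembly gene, rose by a log2 difference of 1.02 (limma adjusted p = 0.0125, 0.0548 to 0.0565 without vehicle library 1 or 2).

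**Figure D5:**
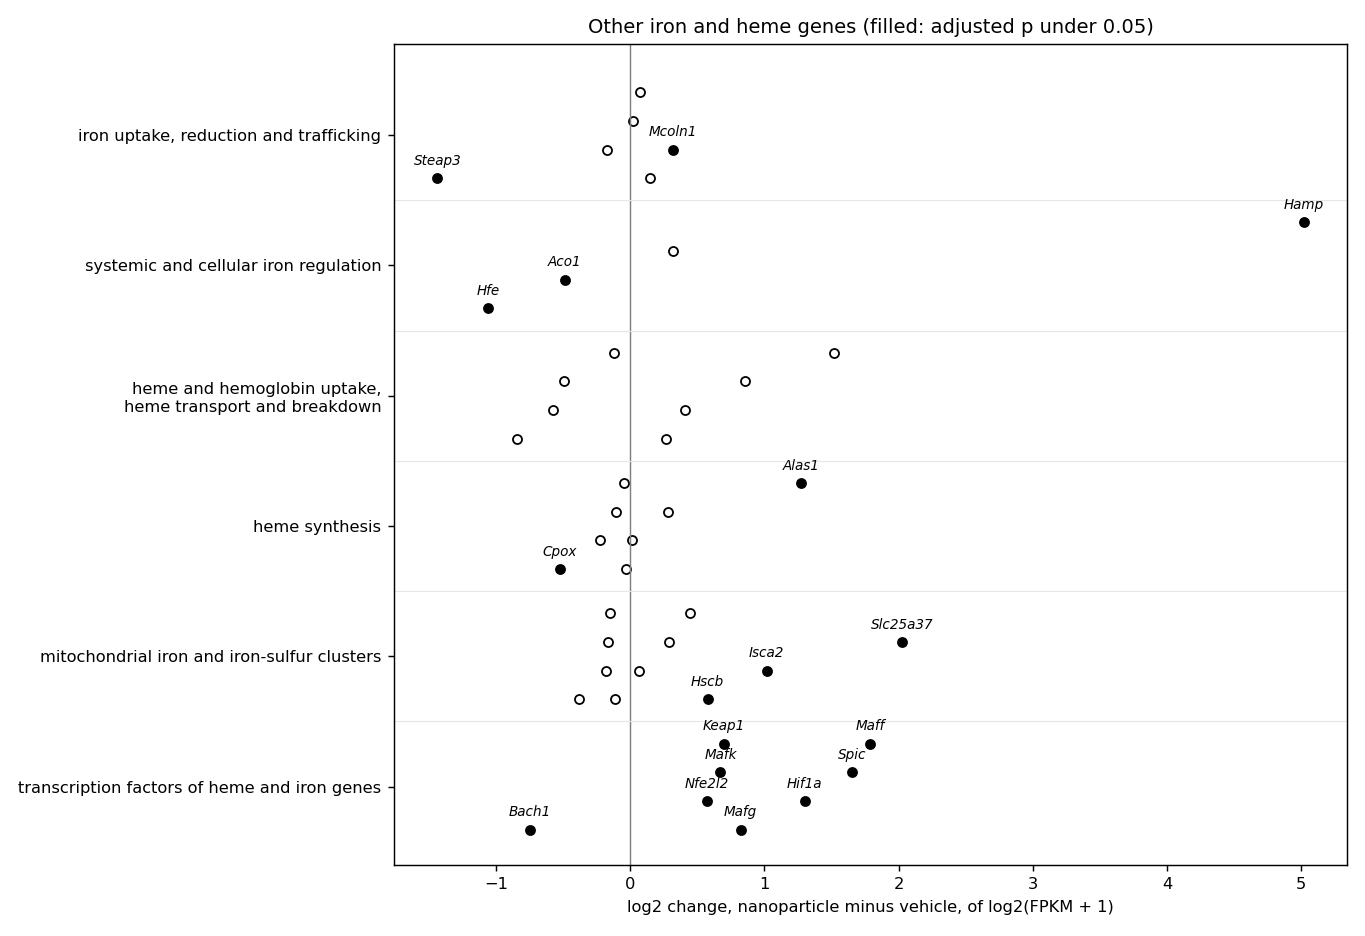
Log2 change (nanoparticle minus vehicle, log2(FPKM + 1) scale) of the genes above the filter in the 6 other lists (1 gene is not shown), 1 row per list, filled and named where the limma adjusted p was under 0.05 (vertical position within a row has no meaning). The row of transcription factors holds 7 filled points above 0 and 1 below, and the heme and hemoglobin row holds 0 filled points.

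The genes whose pattern over the 6 libraries was nearest to that of the members with the largest changes were found by Euclidean distance of gene-centred log2(FPKM + 1). For Lcn2 these were the costimulatory receptor Cd40 (distance 0.398), the chemokine receptor Ccr7 (0.576) and the cytokine Csf3 (0.703), with log2 differences of 5.44, 5.11 and 5.13. For Hmox1 they were Clcn7 (0.092), H2-M3 (0.112) and Nfkb1 (0.116). For Slc11a2 they were Rnf114 (0.106), Psme1 (0.119) and Sbds (0.14).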

How the data were processed

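RNA of 6 libraries was sequenced, and the authors deposited 1 value per gene and library in 2 tables with 140388 identical values. The submitters' processing notes name STAR 2.5, HTSeq, edgeR 3.16.5, DESeq2, hg19 and mm10 without roles; the labels name no unit. The deposited values were treated as FPKM, a unit inferred from the values: multiplied by GENCODE M21 exon length and 1 scale per library, 95.77% to 96.07% of values above 0 were whole reads (within 0.01), and for 241 of 242 abundant exceptions another length gave whole reads. How the deposited FPKM were scaled between libraries is not given in the sources used here. GENCODE M21 (GRCm38) held 23388 of the gene IDs. Because the values are not counts, limma 3.58.1 (R 4.3.3) was fitted with group as the single term, a pseudocount of 1 and eBayes with trend, and tested on simulated data. Intervals cover the spread between libraries as moderated by limma, and read depth sets only counting error. Exact permutation tests used scipy 1.17.1, in Python 3.11.15. Alternatives were other pseudocounts, filters, scalings, no trend, a replicate block, limma-voom and leaving out each library; limma-voom on the recovered reads called 3585 genes, against 3550. Genes named beyond the members were, by rule, up to 3 per list with the smallest adjusted p past the threshold. Bach1, Blvra, Blvrb, Abcg2, Cd163, Ftl1-ps1, Itgax, H2-Ab1, Flt3, Xcr1, Dpp4, S100a9, Mmp9, Camp, Cxcr2 and Ngp are outside it and were chosen after their values were seen. Some genes that this rule names are not reported here. The members and lists were chosen with earlier results of these data known.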

Additional observations from a re-analysis of the deposited data

How the results depend on the processing

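Of the 10 genes, Slc40a1, Hmox1, Tfrc, Slc11a1, Slc11a2 and Lcn2 kept direction and call in all 16 alternatives. Among these 6, a pseudocount of 5 moved Slc40a1 from -1.13 to -0.63 and Lcn2 from 5.38 to 3.4 (its range was 3.4 to 7.78), and equal summed FPKM moved Slc11a1 from 1.15 to 0.69. The number of members called ran from 4 to 6 higher and 2 to 3 lower. Fth1 kept its direction in all 16 and its call in 9, with limma adjusted p = 0.00058 with no trend and 3.8e-05 without nanoparticle replicate 1. Its call was lost in 7. These were equal summed FPKM (log2 change 0.62, limma adjusted p = 0.0556), no filter (1.09, 0.775) and the replicate block (1.09, 0.112). The rest were without nanoparticle replicate 2 (1.09, 0.0503) and without each vehicle replicate (1.06 to 1.13, 0.0948 to 0.116). The cause was not tested. Direction reversed for Ftl1 with equal summed FPKM (-0.0339) and for Ncoa4 with equal summed FPKM (-0.167), total reads (-0.0532) and without nanoparticle replicate 1, where its range over the fits without 1 library began (-0.0587 to 0.452). None of these reversed values passed the threshold. Ftl1 (0.71) and Ireb2 (-0.31) passed only without nanoparticle replicate 1. The Fth1 to Ftl1 log2 ratio difference ran from 0.42 to 0.79 and the ferritin share difference from 2.66 to 2.86 percentage points over the fits without 1 library. The number of genes called was 1817 higher and 1733 lower, and it moved most without nanoparticle replicate 1 (3660 and 3263), with total reads (1109 and 3610), with equal summed FPKM (881 and 4307) and without 1 vehicle replicate (1114 to 1152 and 1027 to 1074). An upper quartile scaling gave 2720 lower genes, and a filter at 5 FPKM gave 975. Whether the replicate numbers pair the samples is not stated. Same-numbered libraries deviated from their group means with correlations of 0.0654, 0.113 and -0.0577, and libraries of unlike number with -0.129 to 0.108. With 3 libraries per group, of which nanoparticle library 1 stood apart, these values cannot settle it. The replicate block gave 2785 genes in place of 3550, and 4 members higher and 2 lower.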

Other observations

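A fully paired match to the hairpin was found in the 5′ UTR of 31 genes, 3 of them among the 10 described, and 18 of the others were above the filter. Of these 18, limma called 4 higher and 5 lower, with a median log2 change of -0.04. Of 77 other genes above the filter with such a match in the 3′ UTR, 15 were higher and 13 lower, with a median of -0.10. These shares are a description, beside 33.2% of all genes called.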
